A study of Drosophila melanogaster with 6 samples.

Results

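Cultured embryonic cells sorted for a fluorescent reporter were set against the non-fluorescent cells of the larval central nervous system of the fruit fly Drosophila melanogaster. The reporter, the red fluorescent protein dsRed1, was fused directly to a 2.1 kb promoter fragment of Gad1, which encodes glutamic acid decarboxylase. EC_pos denotes the fluorescent fraction of an embryonic cell culture, with 4 arrays (a to d). LB_neg denotes cells without fluorescence from larval brain with ventral nerve cord, with 1 array. These 5 arrays were taken by their titles from the 6 of the series. The array left over, LB_pos, holds the fluorescent fraction of the same larval tissue, and its values are given where they help. Per the labels the same reporter was used for all 3 groups. Each one-colour array gave 1 intensity, on a linear scale in arbitrary units, for 13966 probe sets that were not controls. A probe set was tested when it exceeded 197.35, the median of all intensities, on at least 1 array, which held for 9635. A gene could pass through the group in which it was high alone. Counts called among tested members therefore depend in part on this filter.

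The labels used here give no age, larval stage, culture time or genetic background. Whether arrays a to d stem from separate cultures is not stated either, so a p-value reflects no more than the scatter among these arrays, and that may be technical. LB_neg has no replicate, and it was assumed to vary like the EC_pos arrays. The 2 groups differ at once in fluorescence, in developmental stage and in culture against tissue, and the parts of these in any difference cannot be told apart. In RNA from many cells, fewer cells of a type and less RNA per cell cannot be told apart either.

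Glutamic acid decarboxylase makes GABA, the main inhibitory transmitter of the insect brain. The larval brain and nerve cord hold neurons and glia together with neuroblasts, stem cells that divide asymmetrically, and Delta-Notch signalling sets the fates of their daughter cells apart. As they age, larval neuroblasts replace the RNA-binding protein Imp with another one, Syp. Cells dissociated from early fly embryos are known to differentiate in culture into neurons and also into muscle, epidermal and other cell types.

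EC_pos array a stood apart from its group. The ratio of the 3' to the 5' control probe set was 148 for actin, 640.0 for the translation factor eIF-4a and 866 for the glycolytic enzyme GAPDH on array a. On arrays b, c and d these ratios lay between 15.3 and 72.5, and on LB_neg they were 29.5, 120.0 and 19.5. Pearson's r of log2 intensities over the tested probe sets, given as a description, was 0.908 to 0.944 among b, c and d and 0.588 to 0.707 between array a and these. Array a correlated with LB_neg at 0.585, and b, c and d did so at 0.669, 0.600 and 0.596. The median intensity was 183.6 to 207.15 on the EC_pos arrays and 181.5 on LB_neg. As the arrays had been scaled, like medians do not show like signal before scaling. The geometric mean of 9 hybridization control probe sets was 3739 on array a and 1270 to 1562 on b, c and d. It was 2527 on LB_neg and 7382 on LB_pos, and the effect on the differences was not tested. Differences and calls are therefore given without array a, and with it for the main members and for the counts. A gene given by its difference without array a alone was not called with all 4 arrays.

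A difference below is the mean log2(intensity + 53.6) of the EC_pos arrays minus that of LB_neg, where 53.6 is the 25th percentile of all intensities. The offset understates the change of dim genes. "Called" means an adjusted p under 0.05 in limma's test over all tested probe sets. Without array a, 1212 probe sets were called higher in EC_pos, 12.6% of those tested, and 1019 were called lower, 10.6%. With all 4 arrays 45 were called higher, 0.467%, and 7 lower, 0.0727%, and all 52 were also called without array a, in the same direction. An unadjusted p under 0.05 was reached by 1673 probe sets with all 4 arrays. On array a, 1052 of the 1212 and 895 of the 1019 lay on the called side of LB_neg. As a description with no test, each of the 4 arrays lay at least 1 log2 unit above LB_neg for 752 probe sets, 7.8%, and at least 1 unit below it for 722, 7.49%. Of these, 692 and 658 were also called without array a. The median difference over all tested probe sets was -0.14 without array a and -0.11 with it. LB_neg lay under the offset for 407 of the 1212 probe sets called higher, and the size of those differences depends on the offset.

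**Figure D1:**
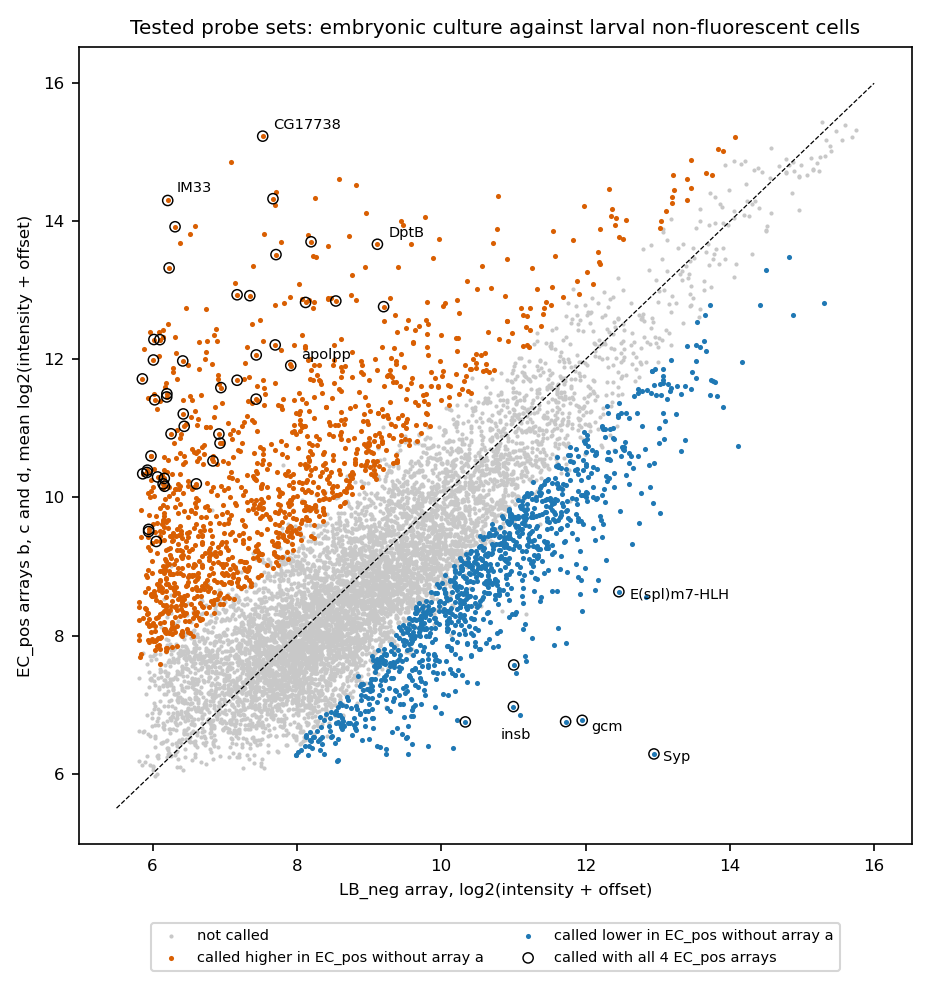
Mean log2(intensity + 53.6) of EC_pos arrays b, c and d (y axis) against LB_neg (x axis) for the 9635 tested probe sets, with the line of equality dashed. Orange points (1212) were called higher and blue points (1019) lower without array a, and black rings mark the 52 called with all 4 EC_pos arrays.

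The gene behind the reporter was dim in both groups. Gad1 read 22.2, 27.6, 37.1 and 39 on EC_pos arrays a to d, against 22 on LB_neg. All 5 values were under the offset, so Gad1 was not tested, and the probe set does not separate the groups. On LB_pos it read 54.8. VGAT, which loads GABA into synaptic vesicles, read 967, 566, 458 and 409 on EC_pos arrays a to d, against 739.7 on LB_neg. Array a lay above LB_neg and b, c and d below it, a difference of -0.59 ± 0.37 (SE; limma adjusted p = 0.295) without array a. Gabat, the transaminase that breaks GABA down, read 439, 1113, 674 and 596 on EC_pos arrays a to d, against 576 on LB_neg. LB_neg lay within the range of the EC_pos arrays, and the difference was 0.38 ± 0.42 (SE; limma adjusted p = 0.559). The next enzyme of the pathway, Ssadh, had a difference of -0.18 ± 0.39 (SE; limma adjusted p = 0.781), glutamine synthetase Gs2 one of 0.86 ± 0.41 (SE; limma adjusted p = 0.174), and glutamate dehydrogenase Gdh one of 0.50 ± 0.32 (SE; limma adjusted p = 0.304). Gat, the GABA transporter of the plasma membrane, read 236, 8.3, 19.8 and 19.3 on EC_pos arrays a to d, against 10.6 on LB_neg. Only array a exceeded the offset. Of the 7 genes of GABA synthesis, transport and breakdown, 6 were tested and 0 were called in either fit. At an unadjusted p under 0.05 there were also none in either fit, the lowest p being 0.0705 for Gs2 without array a. The median difference was 0.24.

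The 2 tested GABA receptor subunits moved in opposite directions without array a. Rdl, which forms the GABA-gated chloride channel, read 218, 1192, 1310.2 and 1322 on EC_pos arrays a to d, against 301 on LB_neg. Arrays b, c and d lay above LB_neg and array a below it. The difference was 1.91 ± 0.32 (SE; limma adjusted p = 0.00443) without array a and 1.33 ± 0.97 (adjusted p = 0.547) with it. Rdl read 5595 on LB_pos, above all other arrays. Lcch3, a related subunit, read 4949, 713, 391 and 461 on EC_pos arrays a to d, against 1437 on LB_neg. Here array a was above LB_neg and the others below it. The difference was -1.41 ± 0.41 (SE; limma adjusted p = 0.0384) without array a and -0.62 ± 1.29 (adjusted p = 0.866) with it.

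The genes with the largest positive differences included peptides of the immune response, a cuticle protein and several genes without a described role here. IM33, an immune-induced peptide, read 14609.6, 14947, 24353 and 22449.7 on EC_pos arrays a to d, against 20.4 on LB_neg. Every EC_pos array lay far above LB_neg, with a difference of 8.09 ± 0.37 (SE; limma adjusted p = 2.39e-05) without array a and 7.98 ± 0.57 (adjusted p = 0.0156) with all 4. Listericin, an antibacterial peptide, read 3767, 11225, 16606 and 19819 on EC_pos arrays a to d, against 25.8 on LB_neg. Array a was the lowest of its group and still far above LB_neg. The difference was 7.61 ± 0.38 (SE; limma adjusted p = 3.8e-05) without array a and 7.10 ± 0.93 (adjusted p = 0.0405) with it. CG17738 read 13657, 30272, 44138 and 42629 on EC_pos arrays a to d, against 131 on LB_neg, and its difference was 7.71 ± 0.32 (SE; limma adjusted p = 2.39e-05) without array a and 7.34 ± 0.78 (adjusted p = 0.0352) with it. CG34166 read 1232, 34682, 26688 and 28058 on EC_pos arrays a to d, against 82.9 on LB_neg. Array a was by far the lowest of the EC_pos arrays. The difference was 7.76 ± 0.31 (SE; limma adjusted p = 2.39e-05) without array a, and 6.63 ± 1.76 (adjusted p = 0.129) with it was not called. Phk-3, of the chemosensory protein family, read 2044, 19658, 24835 and 21346 on EC_pos arrays a to d, against 156 on LB_neg. It was called without array a (6.70 ± 0.29 SE, limma adjusted p = 2.39e-05) and not with it (5.86 ± 1.36 SE, limma adjusted p = 0.102).

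Cpr47Eb, a protein of the chitin-binding cuticle family, read 1857, 9088, 17755 and 18229 on EC_pos arrays a to d, against 38.2 on LB_neg. Its difference was 7.29 ± 0.44 (SE; limma adjusted p = 5.81e-05) without array a and 6.56 ± 1.23 (adjusted p = 0.0695) with it. Also among the 10 largest were CG12310 (7.34), CG13460 (7.32), CG43896 (6.42) and CG13640 (6.31), all of them called without array a and not with it. On each of these, array a had the lowest value of the EC_pos arrays and LB_neg read under the offset.

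Among the 45 probe sets called higher with all 4 arrays were Mtk, fon and Tsp42Ed. Mtk, the antimicrobial peptide Metchnikowin, read 2472, 3756, 5703 and 5628 on EC_pos arrays a to d, against 15 on LB_neg. All EC_pos values were high, and the difference with all 4 arrays was 5.94 ± 0.62 (adjusted p = 0.0352). The clotting protein fon read 2411, 2949, 4212 and 5218 on EC_pos arrays a to d, against 10.9 on LB_neg, with a difference of 5.80 ± 0.58 (adjusted p = 0.0352) with all 4 arrays. Tsp42Ed, a tetraspanin, read 8203, 7529, 7163 and 8745 on EC_pos arrays a to d, against 90.5 on LB_neg. Its EC_pos arrays lay close together, and the difference with all 4 was 5.78 ± 0.48 (adjusted p = 0.0207). Obp56h, an odorant binding protein, was at 1902 (a), 7426 (b), 2174 (c) and 2239.6 (d) in EC_pos, against 4.4 on LB_neg, with array b above the rest and a difference of 5.66 ± 0.81 (adjusted p = 0.0476). CG12239 had a difference of 6.24 ± 0.89 (adjusted p = 0.0476). Of the 10 largest differences in this fit, 2 belong to probe sets that have no single gene in the annotation used here, and their differences were 6.69 ± 0.77 (adjusted p = 0.0374) and 6.64 ± 0.56 (adjusted p = 0.0207). In all, 8 of the 52 had no single gene.

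**Figure D2:**
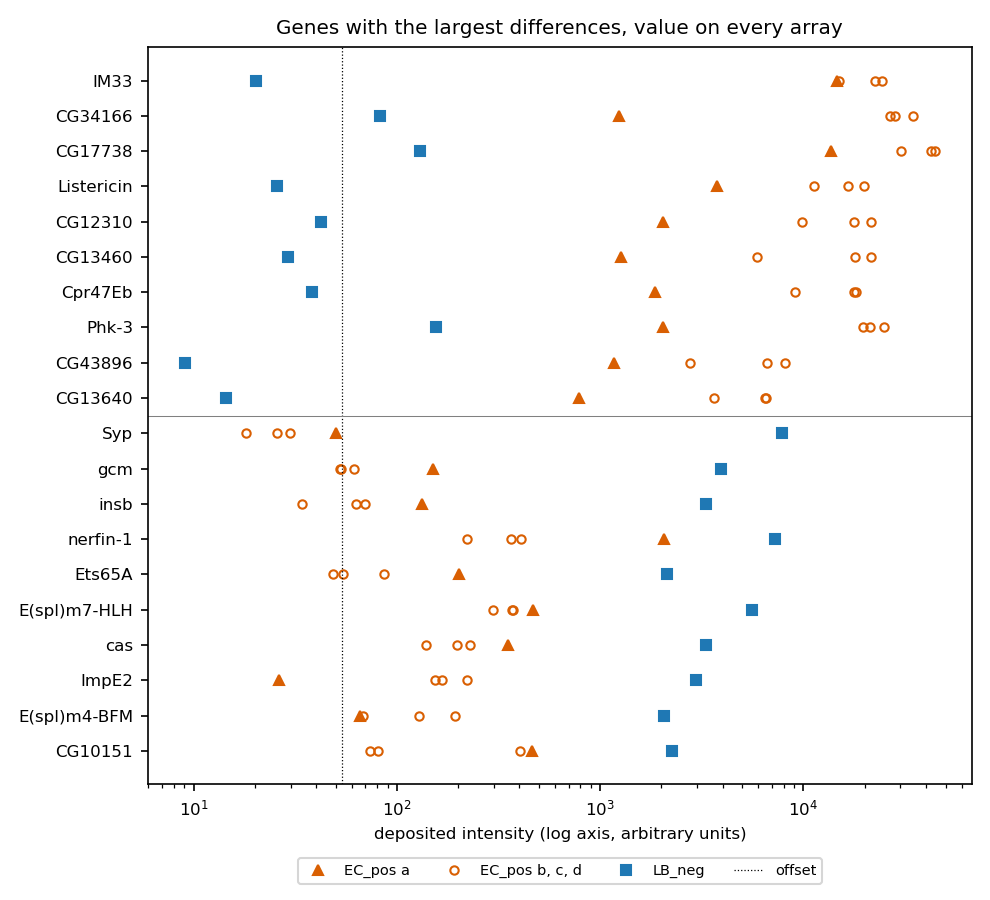
Deposited intensity (x axis, log scale, arbitrary units) on every EC_pos array and on LB_neg for the 10 genes with the largest differences in each direction, higher in EC_pos above the grey line and lower below it. IM33 read 14947 to 24353 on EC_pos arrays b, c and d and 20.4 on LB_neg, and Syp read 18.1 to 29.9 on the same arrays and 7852 on LB_neg.

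Among the genes with the largest negative differences were Syp, gcm, insb and nerfin-1. Syp, the RNA-binding protein of late neuroblasts and their progeny, read 50, 18.1, 29.9 and 25.7 on EC_pos arrays a to d, against 7852 on LB_neg. All EC_pos values were under the offset, and the difference was -6.66 ± 0.38 (SE; limma adjusted p = 4.89e-05) without array a and -6.56 ± 0.47 (adjusted p = 0.0156) with it. Imp, its counterpart of early neuroblasts, read 280.4, 926, 985 and 658 on EC_pos arrays a to d, against 254 on LB_neg. Imp lay above LB_neg on every EC_pos array, least on array a, with a difference of 1.54 ± 0.38 (SE; limma adjusted p = 0.0231) without array a and 1.19 ± 0.71 (adjusted p = 0.463) with it. Syp and Imp read 4352 and 681 on LB_pos.

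The transcription factor gcm, which specifies glia and also acts in embryonic hemocytes, read 151, 52.7, 52.9 and 61.8 on EC_pos arrays a to d, against 3914 on LB_neg. Every EC_pos array was low and LB_neg high, a difference of -5.18 ± 0.40 (SE; limma adjusted p = 0.000133) without array a and -4.96 ± 0.56 (adjusted p = 0.0374) with it. On LB_pos gcm read 499.9. The nuclear protein insb, which inhibits Notch activity, read 133, 69.5, 62.8 and 34.1 on EC_pos arrays a to d, against 3329.9 on LB_neg. The difference was -4.97 ± 0.43 (SE; limma adjusted p = 0.000226) without array a and -4.77 ± 0.56 (adjusted p = 0.0374) with all 4 arrays, and LB_pos read 398. The zinc finger factor nerfin-1, which keeps neurons from reverting to a progenitor state, has 2 probe sets. The brighter one read 2057, 409.5, 222 and 365 on EC_pos arrays a to d, against 7268 on LB_neg. Array a lay well above b, c and d, and the difference was -4.28 ± 0.40 (SE; limma adjusted p = 0.000341) without it and -3.66 ± 1.06 (adjusted p = 0.152) with it. The dimmer one read 51.9, 37.2, 56.7 and 70.8 on EC_pos arrays a to d, against 1237 on LB_neg. Each EC_pos array was low there, with a difference of -3.59 ± 0.49 (adjusted p = 0.0414) with all 4. Another probe set, without a single gene, was called lower in both fits as well (-4.20 ± 0.54 SE, limma adjusted p = 0.0405 with all 4 arrays).

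Ets65A, an ETS-domain factor, read 202, 54.2, 86.8 and 48.4 on EC_pos arrays a to d, against 2126 on LB_neg. It differed by -4.24 ± 0.41 (SE; limma adjusted p = 0.000393) without array a and -3.95 ± 0.63 (adjusted p = 0.0551) with it. The temporal factor cas read 352, 138, 229 and 197 on EC_pos arrays a to d, against 3332 on LB_neg. The 4 EC_pos arrays were all below LB_neg, and the difference was -3.83 ± 0.40 (SE; limma adjusted p = 0.00056) without array a and -3.63 ± 0.55 (adjusted p = 0.0551) with it. ImpE2, an ecdysone-induced gene, read 26.4, 221, 154 and 167 on EC_pos arrays a to d, against 2961 on LB_neg. Here array a was the lowest EC_pos array, and the difference was -3.70 ± 0.37 (SE; limma adjusted p = 0.000428) without it and -4.08 ± 0.73 (adjusted p = 0.0641) with it. CG10151 had a difference of -3.54 ± 0.70 (SE; limma adjusted p = 0.00946) without array a and -3.20 ± 0.93 (adjusted p = 0.152) with it. It read 461, 405, 74.1 and 80.6 on EC_pos arrays a to d, against 2263 on LB_neg.

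Of 26 neuroblast and progenitor genes on the array, 21 were tested, and 10 were called lower and 2 higher without array a, where 10.6% of all tested probe sets were called lower. With all 4 arrays only Syp was called, each gene being represented by its brightest probe set. The median difference was -1.31 without array a and -1.02 with it. The adaptor mira, which carries fate determinants into the daughter cell, read 798, 430.1, 266 and 371 on EC_pos arrays a to d, against 4453 on LB_neg. All EC_pos arrays lay below LB_neg, and the difference was -3.48 ± 0.38 (SE; limma adjusted p = 0.000649) without array a and -3.21 ± 0.63 (adjusted p = 0.075) with it. The neuroblast factor wor read 299.8, 196, 295 and 318 on EC_pos arrays a to d, against 1977 on LB_neg. No EC_pos array came near LB_neg, and the difference was -2.67 ± 0.40 (SE; limma adjusted p = 0.00262) without array a and -2.63 ± 0.48 (adjusted p = 0.0649) with it. pros, the fate determinant that mira carries, was called lower with a difference of -3.33 ± 0.43 (SE; limma adjusted p = 0.00136) without array a and -3.30 ± 0.53 (adjusted p = 0.0551) with it, and read 374, 234, 312 and 497 on EC_pos arrays a to d, against 3842 on LB_neg. Also called lower without array a were the proneural ase (-1.94), the growth repressor brat (-1.50) and esg (-2.03), and erm, a factor of intermediate progenitors (-2.21). The 2 members called higher were Imp, given above, and nub. The POU-domain factor nub read 33.2, 403, 309.5 and 289 on EC_pos arrays a to d, against 24.7 on LB_neg. Arrays b, c and d lay above LB_neg, while array a was under the offset, and the difference was 2.30 ± 0.43 (SE; limma adjusted p = 0.00755) without it and 1.76 ± 0.94 (adjusted p = 0.401) with it. dpn, a neuroblast repressor, had a difference of -0.67 ± 0.51 (SE; limma adjusted p = 0.39) and was not called.

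The Delta-Notch list holds genes of the pathway, of the E(spl) and Bearded families and of related repressors. Of its 17 genes on the array 16 were tested, and without array a 9 were called lower, 1 higher and 6 neither, with 2 called lower with all 4 arrays. The median was -2.06 without array a and -1.84 with it. The bHLH repressor E(spl)m7-HLH read 469.6, 371, 367 and 298 on EC_pos arrays a to d, against 5589.8 on LB_neg. The EC_pos arrays lay close together, and the difference was -3.83 ± 0.34 (SE; limma adjusted p = 0.000259) without array a and -3.73 ± 0.48 (adjusted p = 0.0405) with it. Tom, a Bearded family inhibitor of the ligase that activates Delta, read 144, 186, 92.6 and 144 on EC_pos arrays a to d, against 2002 on LB_neg. It was called with all 4 arrays (-3.42 ± 0.49 SE, limma adjusted p = 0.0476), and LB_pos was high too, at 2534. E(spl)m4-BFM, of the same family, read 65.8, 67.8, 194 and 129 on EC_pos arrays a to d, against 2052 on LB_neg. All EC_pos values were low, with a difference of -3.58 ± 0.47 (SE; limma adjusted p = 0.00146) without array a and -3.72 ± 0.58 (adjusted p = 0.0551) with it. E(spl)mdelta-HLH (-3.42), E(spl)m5-HLH (-3.0) and E(spl)malpha-BFM (-2.99) were also called lower without array a. The exception was hry, a related repressor, which read 10256, 7912, 8614 and 8273 on EC_pos arrays a to d, against 1388 on LB_neg. All 4 arrays were high, and the difference was 2.53 ± 0.28 (SE; limma adjusted p = 0.000706) without array a and 2.61 ± 0.53 (adjusted p = 0.0807) with it.

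Genes of cell division were called in the lower direction alone. All 27 genes of S phase and replication on the array were tested, and 11 were called lower and 0 higher without array a, with a median of -1.18 without array a and -1.16 with it. CycE, which starts S phase, read 451, 122, 61.9 and 27.1 on EC_pos arrays a to d, against 964 on LB_neg. All EC_pos arrays lay below LB_neg, array a the least, and the difference was -3.11 ± 0.52 (SE; limma adjusted p = 0.0046) without it and -2.59 ± 0.96 (adjusted p = 0.242) with it. Mcm5, a subunit of the replicative helicase, read 228, 227, 251 and 158 on EC_pos arrays a to d, against 1698 on LB_neg. Arrays a to d were alike, and the difference was -2.74 ± 0.40 (SE; limma adjusted p = 0.00245) without array a and -2.71 ± 0.47 (adjusted p = 0.0617) with it. The helicase subunits Mcm3 (-2.57), Mcm2 (-2.56) and dpa (-2.21) and the licensing factor dup (-2.39) were called lower too. Of 22 genes of mitosis and cytokinesis, all tested, 13 were called lower and 0 higher, with a median of -1.70 without array a and -1.58 with it. Ndc80, of the outer kinetochore, read 54.2, 36.4, 46.1 and 32.2 on EC_pos arrays a to d, against 676 on LB_neg. All EC_pos arrays were low, with a difference of -2.99 ± 0.46 (SE; limma adjusted p = 0.00297) without array a and -2.93 ± 0.52 (adjusted p = 0.0629) with it. Its partner Nuf2 (-2.71), the anaphase activator fzy (-2.70), the checkpoint protein Bub3 (-2.70), the kinase aurB (-2.63) and its partner Incenp (-2.63) were called lower. CycB, the mitotic cyclin, had a difference of -1.63 ± 0.46 (SE; limma adjusted p = 0.0366) without array a and -1.58 ± 0.57 (adjusted p = 0.232) with it. With all 4 arrays 0 genes of the 2 lists were called. On array a the medians of the lists were -1.13 and -1.56.

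Of 10 general neuron genes tested, 1 was called lower, 1 higher and 8 neither without array a. Over all tested probe sets 10.6% were called lower and 12.6% higher, so the list lay near these shares. Its median was -0.56 without array a and -0.85 with it. elav, the RNA-binding protein by which neurons are commonly recognised, read 59.8, 665, 595 and 299.6 on EC_pos arrays a to d, against 4939.9 on LB_neg. Every EC_pos array was below LB_neg, with a difference of -3.19 ± 0.45 (SE; limma adjusted p = 0.00215) without array a and -3.76 ± 1.01 (adjusted p = 0.133) with it. jeb, a secreted ligand, read 22.6, 652, 655 and 665 on EC_pos arrays a to d, against 81 on LB_neg. Arrays b, c and d lay together above LB_neg and array a below it. The difference was 2.40 ± 0.36 (SE; limma adjusted p = 0.00261) without array a and 1.60 ± 1.28 (adjusted p = 0.591) with it. nSyb, the synaptic vesicle fusion protein of neurons, read 53.2, 338, 334 and 279 on EC_pos arrays a to d, against 463 on LB_neg. LB_neg lay above all EC_pos arrays, but the difference of -0.48 ± 0.37 (SE; limma adjusted p = 0.395) did not pass. The others included Appl (-0.47), futsch (-1.06), Rbp9 (0.17) and nrv3 (0.62), none of them called. Among genes that bear on the label of EC_pos, the fluorescent fraction for a Gad1 reporter, Gad1 read under the offset on all 4 EC_pos arrays. General neuron genes did not go 1 way. On the EC_pos arrays elav read 59.8 to 665 and nrv3 1231 to 3813, against 4939.9 and 1198.5 on LB_neg. VGAT read 409 to 967 on the EC_pos arrays, 739.7 on LB_neg and 737.7 on LB_pos. The Gad1 probe set read only 54.8 on LB_pos as well, so it is a weak check of the label.

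Of 15 synaptic vesicle genes tested 1 was called, lower: unc-13, which primes vesicles for release, read 2606, 904, 513 and 422 on EC_pos arrays a to d, against 2028 on LB_neg. Array a was above LB_neg and b, c and d below it, with a difference of -1.71 ± 0.45 (SE; limma adjusted p = 0.0277) without array a and -1.19 ± 0.95 (adjusted p = 0.588) with it. Among 22 ion channel genes 2 were called higher and 1 lower, smaller shares than among all tested probe sets. The calcium-activated potassium channel slo read 1288, 256, 139 and 138 on EC_pos arrays a to d, against 18.9 on LB_neg. Array a was the highest, and the difference was 1.64 ± 0.49 (SE; limma adjusted p = 0.0434) without it and 2.28 ± 1.09 (adjusted p = 0.349) with it. The TRP channel pain had a difference of 1.62 ± 0.37 (SE; limma adjusted p = 0.0161) without array a and 1.46 ± 0.50 (adjusted p = 0.205) with it. The potassium channel sei had one of -2.17 ± 0.45 (SE; limma adjusted p = 0.0112) without array a and -1.47 ± 1.19 (adjusted p = 0.597) with it, and array a alone lay above LB_neg. Of 8 acetylcholine receptor subunits 1 was called lower, nAChRalpha4 with 2189, 205, 172 and 134 on EC_pos arrays a to d, against 1068 on LB_neg. Array a was high and the other EC_pos arrays low, giving -2.34 ± 0.41 (SE; limma adjusted p = 0.00528) without array a and -1.50 ± 1.33 (adjusted p = 0.634) with it. The 3 genes of acetylcholine synthesis, transport and breakdown were not called. Ace, the esterase, had a difference of 1.35 ± 0.54 (SE; limma adjusted p = 0.111), the choline transporter ChT 0.97 ± 0.42 (SE; limma adjusted p = 0.133), and the synthesis enzyme ChAT 0.19 ± 0.42 (SE; limma adjusted p = 0.778). Of 6 glutamate genes 0 were called, the largest difference being that of the receptor subunit GluRIIB at 1.33 ± 0.44 (SE; limma adjusted p = 0.0607).

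The dopamine synthesis genes ple and Ddc were called higher without array a. ple, the tyrosine hydroxylase that also acts in tanning of the cuticle, read 346, 2491, 4074 and 4885 on EC_pos arrays a to d, against 46 on LB_neg. Each EC_pos array was above LB_neg, array a the least, with a difference of 5.23 ± 0.43 (SE; limma adjusted p = 0.000194) without array a and 4.42 ± 1.32 (adjusted p = 0.16) with it. Ddc, the next enzyme, read 5312, 6537, 12229.5 and 13812 on EC_pos arrays a to d, against 438 on LB_neg. The difference was 4.40 ± 0.43 (SE; limma adjusted p = 0.000397) without array a and 4.16 ± 0.72 (adjusted p = 0.0613) with it. Vmat, which fills vesicles with monoamines, had a difference of 1.21 ± 0.39 (SE; limma adjusted p = 0.0575) and was not called. The other 5 tested genes of this list, transporters and receptors, were not called, and the median was 0.41 without array a and 0.25 with it. LB_pos read 145 for ple and 4586 for Ddc.

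Neuropeptide precursors lay mostly above LB_neg. Of 25 tested, 24 had a positive difference without array a, 11 were called higher and 0 lower, and the median was 1.37 without array a and 1.30 with it. With all 4 arrays 0 were called. The corazonin precursor Crz read 1712, 7349, 1558 and 1623 on EC_pos arrays a to d, against 39.7 on LB_neg. The 4 EC_pos arrays were all high and array b was the highest, with a difference of 4.86 ± 0.78 (SE; limma adjusted p = 0.00371) without array a and 4.71 ± 0.92 (adjusted p = 0.075) with it. The myosuppressin gene Ms read 2272, 2554, 701 and 618 on EC_pos arrays a to d, against 9.4 on LB_neg. Arrays a and b lay above c and d, and all 4 were well above LB_neg. The difference was 4.12 ± 0.71 (SE; limma adjusted p = 0.00521) without array a and 4.39 ± 0.89 (adjusted p = 0.0807) with it. AstC, allatostatin C, read 1122, 1314, 486 and 854 on EC_pos arrays a to d, against 28.2 on LB_neg. Its difference was 3.42 ± 0.52 (SE; limma adjusted p = 0.00297) without array a and 3.53 ± 0.62 (adjusted p = 0.0629) with it. NPF, which regulates feeding, read 91.2, 1902, 454 and 480.0 on EC_pos arrays a to d, against 16.8 on LB_neg. Array b was the highest and array a the lowest, with a difference of 3.52 ± 0.74 (SE; limma adjusted p = 0.0119) without array a and 2.90 ± 1.23 (adjusted p = 0.291) with it. Capa (3.20) and Nplp1 (2.02) were also called. LB_pos was high for several of these too, at 2022 for Crz, 1111 for AstC and 1488 for Capa, and low for NPF at 38.8. Only Nplp3 lay below LB_neg, at -0.98 ± 0.42 (SE; limma adjusted p = 0.136), and was not called. Of 8 genes that process peptides or fill dense-core vesicles 0 were called, with the largest difference in the amidating lyase Pal2, 1.49 ± 0.49 (SE; limma adjusted p = 0.0594).

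**Figure D3:**
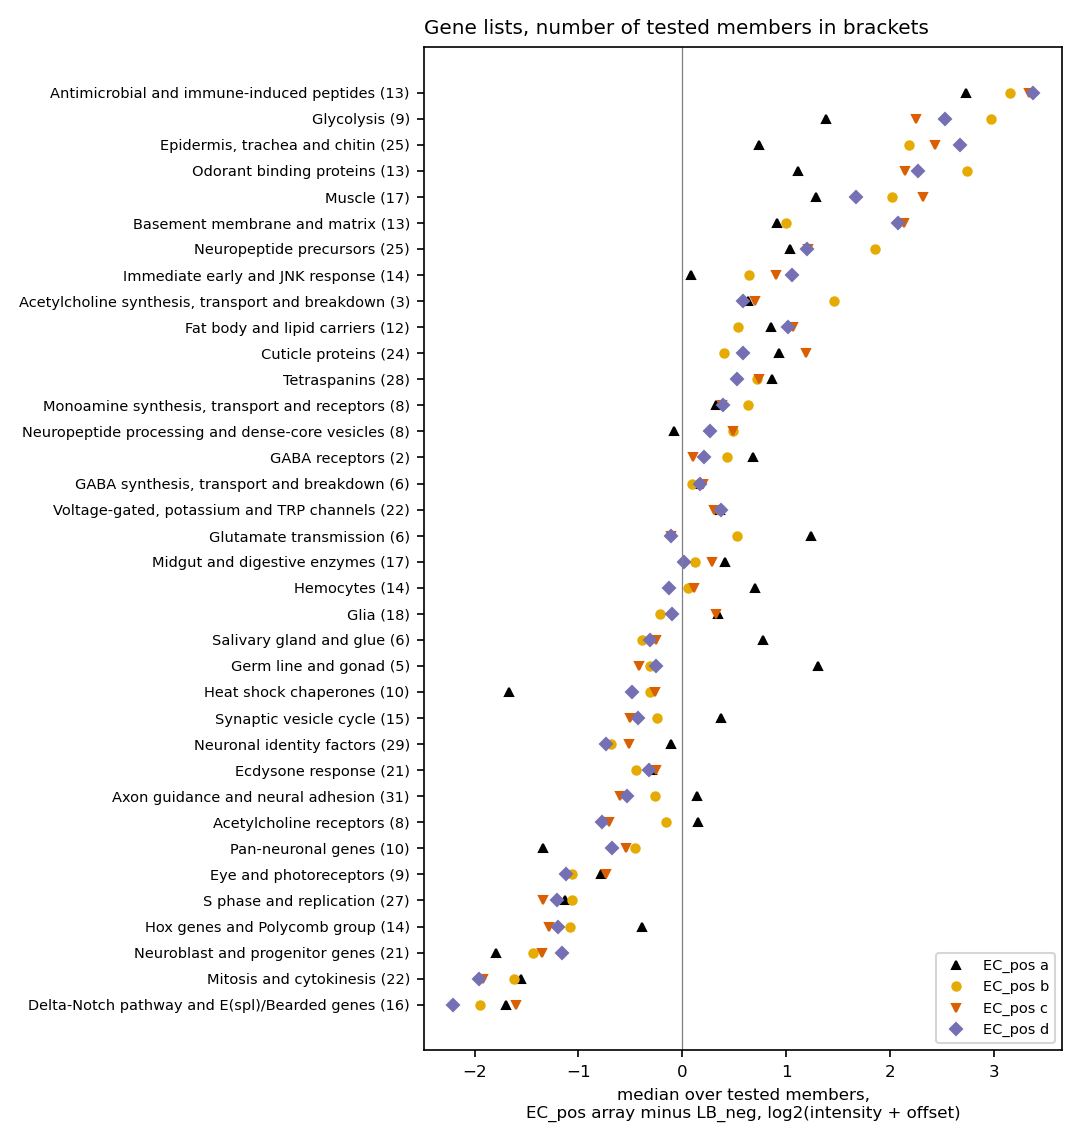
Median over the tested members of each of 36 gene lists of the difference between 1 EC_pos array and LB_neg (x axis, log2 scale), with 1 symbol for each EC_pos array. The lists are sorted by the median without array a, from 3.27 for antimicrobial and immune-induced peptides at the top to -2.06 for the Delta-Notch list at the bottom, and array a (black) differs in sign from the others for several lists near 0.

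Genes of other tissues were examined next. Of 20 muscle genes on the array 17 were tested, and 12 of the 17 were called higher and 0 lower without array a. Over all tested probe sets 12.6% were called higher. The median of the list was 1.84 without array a and 1.99 with it. The myosin light chain Mlc1 read 469, 1691, 2283 and 1934 on EC_pos arrays a to d, against 27.3 on LB_neg. All EC_pos arrays were above LB_neg, array a the least, and the difference was 4.63 ± 0.38 (SE; limma adjusted p = 0.000174) without array a and 4.15 ± 0.86 (adjusted p = 0.081) with it. Mlc2, the other light chain, read 1410.2, 5908, 8179 and 7851 on EC_pos arrays a to d, against 249 on LB_neg. The difference was 4.59 ± 0.34 (SE; limma adjusted p = 0.000113) without array a and 4.01 ± 0.99 (adjusted p = 0.112) with it. The thick filament protein Prm read 53.8, 718, 1521 and 1139 on EC_pos arrays a to d, against 17.1 on LB_neg. Array a was near the offset and the rest high, with a difference of 4.0 ± 0.48 (SE; limma adjusted p = 0.00102) without array a and 3.15 ± 1.38 (adjusted p = 0.309) with it. The LIM protein Mlp84B (3.91), the troponin up (3.52), the tropomyosin Tm2 (3.34) and the titin-related bt (1.84) were called higher too. Mlc1, Prm, up, Tm2 and bt read at most 29.9 on LB_neg and 101.7 on LB_pos, and passed the filter through EC_pos arrays alone. The 12 of 17 thus depends in part on the filter. sls, another titin-related gene, had a difference of -1.54 ± 0.64 (SE; limma adjusted p = 0.121), and was not called. With all 4 arrays 0 muscle genes were called. Summed intensity over the list was 12767 to 26588 on the EC_pos arrays, against 10422 on LB_neg.

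Genes of epidermis, trachea and chitin gave 17 of 25 tested members called higher and 0 lower without array a, with a median of 2.27 without array a and 2.19 with it. The chitin deacetylase serp read 47.4, 1769, 4549 and 6792 on EC_pos arrays a to d, against 36.3 on LB_neg. Array a was under the offset and b, c and d high, so the difference was 5.42 ± 0.65 (SE; limma adjusted p = 0.000973) without array a and 4.11 ± 2.10 (adjusted p = 0.381) with it. Another deacetylase, verm, read 1569.7, 6662, 7077 and 9035 on EC_pos arrays a to d, against 575 on LB_neg. All arrays exceeded LB_neg, with a difference of 3.59 ± 0.31 (SE; limma adjusted p = 0.000242) without array a and 3.04 ± 0.97 (adjusted p = 0.182) with it. Idgf4, a secreted chitinase-like growth factor, read 1929, 7713, 8096 and 10323 on EC_pos arrays a to d, against 207 on LB_neg. The difference was 5.06 ± 0.32 (SE; limma adjusted p = 6.37e-05) without array a and 4.53 ± 0.94 (adjusted p = 0.081) with it. Idgf2 of the same family (3.84) and the chitin synthase kkv (2.21) were called higher. The epidermal factor grh was not called (0.72 ± 0.43 SE, limma adjusted p = 0.267). Of 37 cuticle proteins on the array 24 were tested, and 6 of the 24 were called higher. Their median was 0.61 without array a and 0.64 with it. obst-E, a chitin-binding protein, read 433, 4848, 5543 and 6082 on EC_pos arrays a to d, against 16.8 on LB_neg. Its difference was 6.29 ± 0.33 (SE; limma adjusted p = 4.37e-05) without array a and 5.42 ± 1.39 (adjusted p = 0.122) with it. Cpr67B read 1069, 12396, 24147 and 29436 on EC_pos arrays a to d, against 250.2 on LB_neg, with a difference of 6.09 ± 0.47 (SE; limma adjusted p = 0.000133) without array a and 5.04 ± 1.69 (adjusted p = 0.198) with it. With all 4 arrays 0 genes of the 2 lists were called. Summed intensity over the cuticle list was 13349 to 64909 on the EC_pos arrays, against 5848 on LB_neg, and over the epidermis list 20070.0 to 63035 on the EC_pos arrays, against 9968 on LB_neg.

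Of 13 genes of basement membrane and matrix 6 were called higher and 1 lower without array a, with a median of 1.77 without array a and 1.22 with it. Tig, the muscle attachment protein tiggrin, read 364, 2239, 2397 and 2691 on EC_pos arrays a to d, against 168 on LB_neg. Arrays b, c and d were high and array a lower, with a difference of 3.49 ± 0.34 (SE; limma adjusted p = 0.000394) without array a and 2.84 ± 1.06 (adjusted p = 0.242) with it. Nidogen, Ndg, read 269, 365, 258 and 423 on EC_pos arrays a to d, against 16.4 on LB_neg. The difference was 2.50 ± 0.46 (SE; limma adjusted p = 0.00682) without array a and 2.43 ± 0.51 (adjusted p = 0.0843) with it. The perlecan trol (2.51), the collagen IV chain vkg (2.40), the laminin chain LanB2 (2.01) and the protease inhibitor Timp (2.23) were called higher too. The other collagen IV chain, Col4a1 (1.77 ± 0.56 SE, limma adjusted p = 0.0555), and LanA (0.71 ± 0.35 SE, limma adjusted p = 0.186) were not. Summed intensity over the list was 8677 to 21421 on the EC_pos arrays, against 6259 on LB_neg.

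Of 14 hemocyte genes tested, 2 were called higher and 3 lower without array a, and the median was 0.11 without array a and 0.30 with it. Over all tested probe sets 12.6% were called higher and 10.6% lower. Hml, a marker of plasmatocytes, read 214, 91.6, 97.5 and 118 on EC_pos arrays a to d, against 746 on LB_neg. Each EC_pos array was below LB_neg, with a difference of -2.36 ± 0.42 (SE; limma adjusted p = 0.0058) without array a and -2.16 ± 0.55 (adjusted p = 0.119) with it. Pxn, a peroxidase of hemocytes and matrix, read 412, 38.5, 33.4 and 20 on EC_pos arrays a to d, against 515 on LB_neg. Array a was near LB_neg and the others under the offset, with a difference of -2.76 ± 0.46 (SE; limma adjusted p = 0.00436) without array a and -2.14 ± 1.04 (adjusted p = 0.358) with it. The prophenoloxidase PPO2 read 2482, 991, 2027 and 2502 on EC_pos arrays a to d, against 458 on LB_neg. It was called higher, with a difference of 1.79 ± 0.50 (SE; limma adjusted p = 0.0354) without array a and 1.92 ± 0.64 (adjusted p = 0.199) with it. PPO1, of the same family (-0.34 ± 0.42 SE, limma adjusted p = 0.607), and the blood cell factor srp (0.15 ± 0.45 SE, limma adjusted p = 0.847) were not called. Of 12 fat body and lipid carrier genes 4 were called higher and 0 lower. The largest difference was that of apolpp, the lipophorin precursor, at 3266 (a), 3892 (b), 3590.4 (c) and 3921 (d) in EC_pos, against 188 on LB_neg. The EC_pos arrays were close together, and the difference was 4.0 ± 0.32 (SE; limma adjusted p = 0.000156) without array a and 3.94 ± 0.47 (adjusted p = 0.0374) with all 4. Apoltp, a lipid transfer particle protein, had a difference of 2.28 ± 0.34 (SE; limma adjusted p = 0.00251) without array a and 2.05 ± 0.58 (adjusted p = 0.149) with it. The larval serum protein Lsp2 was not called (-0.27 ± 0.46 SE, limma adjusted p = 0.711).

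Of 18 glial genes 4 were called higher and 2 lower without array a, where 12.6% of all tested probe sets were called higher and 10.6% lower. The median was -0.08 without array a and -0.05 with it, and its sign depends on the processing. The factor repo, by which most glia are recognised, read 369, 262, 305 and 138 on EC_pos arrays a to d, against 331 on LB_neg. LB_neg lay within the EC_pos range, and the difference was -0.46 ± 0.49 (SE; limma adjusted p = 0.539). Called lower were gcm and the transporter Eaat2, which read 4193, 817, 285 and 346 on EC_pos arrays a to d, against 1954 on LB_neg. Array a lay above LB_neg and the rest below it, with a difference of -2.03 ± 0.53 (SE; limma adjusted p = 0.0277) without array a and -1.26 ± 1.32 (adjusted p = 0.703) with it. The citrate transporter Indy read 997, 1384, 1344 and 912 on EC_pos arrays a to d, against 83.7 on LB_neg. Its EC_pos values were all high, with a difference of 3.18 ± 0.40 (SE; limma adjusted p = 0.00127) without array a and 3.12 ± 0.49 (adjusted p = 0.0551) with it. The beta-alanyl transferase e (2.52), the drug transporter Mdr65 (2.29) and vkg were also called higher, and the blood-brain barrier receptor moody was not (0.79 ± 0.43 SE, limma adjusted p = 0.218). The relative of gcm, gcm2, had a difference of -1.31 ± 0.48 (SE; limma adjusted p = 0.0863).

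Of 17 midgut genes 2 were called higher, close to the share of 12.6% over all tested probe sets. One of them was the lysozyme LysX, with 3164, 3008, 1573 and 1415 on EC_pos arrays a to d, against 22.8 on LB_neg. All 4 arrays were high, and the difference was 4.67 ± 0.46 (SE; limma adjusted p = 0.000432) without array a and 4.85 ± 0.63 (adjusted p = 0.0405) with it. LB_pos was high as well, at 1819.9. Of 5 germ line genes tud was called higher (1.58 ± 0.32 SE, limma adjusted p = 0.0097), and of 6 salivary gland genes Sgs7 was called lower (-1.70 ± 0.43 SE, limma adjusted p = 0.0255). With array a the 2 had adjusted p-values of 0.582 and 0.875. Among so few tested genes 1 call does not set either list apart from all tested probe sets. Summed intensity over the midgut list was 9791 to 15285 on the EC_pos arrays, against 7618 on LB_neg. Of the tested members without array a, 12 of 17 muscle, 17 of 25 epidermis, 6 of 24 cuticle, 6 of 13 matrix and 4 of 12 fat body genes were thus called higher beside the neural results above, and their part in those results was not tested. Such counts depend in part on the filter.

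**Figure D4:**
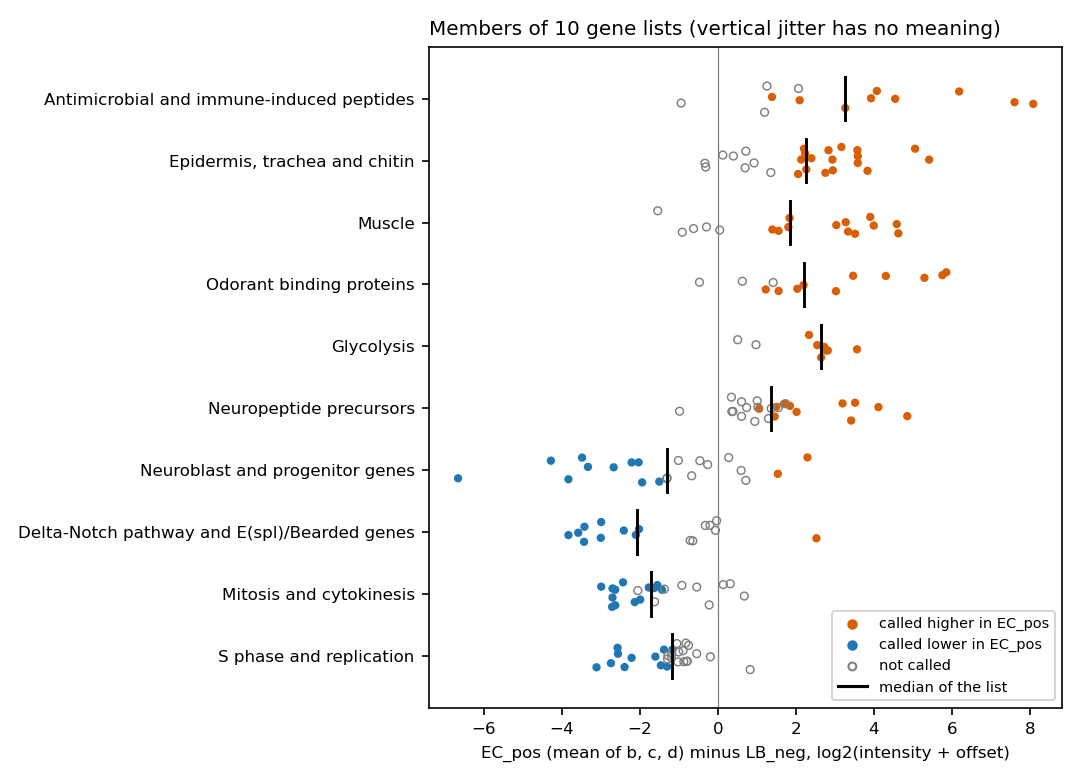
Difference between the mean of EC_pos arrays b, c and d and LB_neg (x axis, log2 scale) for each tested member of 10 gene lists, filled where called without array a, with a black bar at the median of the list. Of the tested muscle genes 12 of 17 were called higher, a count that depends in part on the filter. Of the mitosis genes 13 of 22 were called lower.

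Antimicrobial and immune-induced peptides had the highest median of the 36 lists, 3.27 without array a, 3.14 with it and 2.73 on array a alone. The list was chosen with earlier results of these data known, so its rank is a description. Of 13 tested, 9 were called higher without array a and 4 with all arrays, and 0 were called lower. IM33, Listericin, Mtk and PGRP-SB1 read at most 46 on LB_neg and 192.8 on LB_pos, and passed the filter through EC_pos arrays alone. The median and the 9 of 13 thus depend in part on the filter. Beside IM33, Listericin and Mtk, the diptericin DptB read 16328, 13180.4, 13669.7 and 12086 on EC_pos arrays a to d, against 501 on LB_neg. The EC_pos arrays lay together, and the difference was 4.55 ± 0.28 (SE; limma adjusted p = 6.26e-05) without array a and 4.64 ± 0.53 (adjusted p = 0.0374) with it. The attacin AttD read 4316, 5609, 6634 and 6797 on EC_pos arrays a to d, against 605 on LB_neg. Its difference was 3.27 ± 0.30 (SE; limma adjusted p = 0.000292) without array a and 3.14 ± 0.54 (adjusted p = 0.0613) with it. Drs, the antifungal drosomycin, read 5208, 1304, 1455 and 1323 on EC_pos arrays a to d, against 485 on LB_neg. Array a was the highest, and the difference was 1.39 ± 0.33 (SE; limma adjusted p = 0.0194) without it and 1.86 ± 0.84 (adjusted p = 0.324) with it. The list also holds peptidoglycan recognition proteins, and of these PGRP-LB (4.08) and PGRP-SB1 (3.93) were called higher. On LB_pos AttD read 1556 and PGRP-LB 1349.5, whereas IM33 read 32.9. Fat body and hemocytes are the usual sources of such peptides. Summed intensity over the fat body list was 11816 to 14460.0 on the EC_pos arrays, against 4781 on LB_neg. Over the hemocyte list it was 24179 to 34985 on the EC_pos arrays, against 22328 on LB_neg. In the hemocyte list 2 members were called higher and 3 lower without array a, the 3 being gcm, Hml and Pxn. The part of either cell type in the peptide values was not tested.

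Heat shock chaperones gave 3 of 10 called lower and 1 higher without array a, with a median of -0.38 without array a and -0.62 with it. The small chaperone Hsp27 read 2684, 6743, 6491 and 5888 on EC_pos arrays a to d, against 29927 on LB_neg. The 4 EC_pos arrays were all below LB_neg, with a difference of -2.22 ± 0.26 (SE; limma adjusted p = 0.000905) without array a and -2.53 ± 0.72 (adjusted p = 0.146) with it. DnaJ-1, the co-chaperone of Hsp70, read 613, 2111, 1742 and 2734 on EC_pos arrays a to d, against 8761 on LB_neg. The difference was -1.99 ± 0.34 (SE; limma adjusted p = 0.00461) without array a and -2.43 ± 0.83 (adjusted p = 0.204) with it. Hsp68 was not called (-1.44 ± 0.47 SE, limma adjusted p = 0.0607), and the co-chaperone stv went the other way, at 2.61 ± 0.31 (SE; limma adjusted p = 0.001) without array a and 2.40 ± 0.58 (adjusted p = 0.11) with it. On LB_pos, Hsp27 and DnaJ-1 read 19586 and 4476. On array a the median of the list was -1.66.

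Of 14 immediate early and JNK response genes 5 were called higher and 3 lower without array a. The zinc finger factor sr, which also makes tendon cells, read 2369.7, 4056, 1573 and 1307 on EC_pos arrays a to d, against 216 on LB_neg. All EC_pos arrays were high, with a difference of 2.95 ± 0.58 (SE; limma adjusted p = 0.00879) without array a and 3.01 ± 0.70 (adjusted p = 0.103) with it, and LB_pos was high too at 4647. ImpL2, a secreted inhibitor of insulin signalling, read 1120.1, 5328, 7585 and 8203 on EC_pos arrays a to d, against 985 on LB_neg. Array a was close to LB_neg and the others above it, with a difference of 2.75 ± 0.34 (SE; limma adjusted p = 0.00112) without array a and 2.11 ± 1.09 (adjusted p = 0.389) with it. Pepck1, of gluconeogenesis (2.90), and the orphan receptor Hr38 (1.70) were also called higher. So was the factor Ets21C, at 3.35 ± 1.03 (SE; limma adjusted p = 0.049) without array a and 2.53 ± 1.65 (adjusted p = 0.5) with it. Ets21C read 21, 142, 1035 and 1723 on EC_pos arrays a to d, against 17.2 on LB_neg. Array a was under the offset, and c and d lay far above b. The cell death activators skl (-1.94) and grim (-1.67) and the JNK phosphatase puc (-1.37) were called lower. puc read 33415, 6103, 4699.7 and 4039.7 on EC_pos arrays a to d, against 12698 on LB_neg. Array a was above LB_neg and the rest below it.

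Most factors of hormone response, chromatin and neuronal identity were not called, where 10.6% of all tested probe sets were called lower and 12.6% higher. The Hox and Polycomb or Trithorax genes (5 of 14) and the eye genes (3 of 9) were called lower at a larger share than that. Of 21 ecdysone response genes 4 were called lower and 3 higher. br, an early zinc finger factor of the ecdysone cascade, read 159, 279, 169.9 and 158 on EC_pos arrays a to d, against 2404 on LB_neg. Each EC_pos array was low, with a difference of -3.29 ± 0.41 (SE; limma adjusted p = 0.00123) without array a and -3.35 ± 0.50 (adjusted p = 0.0518) with it. Jhbp2 was called lower (-2.70). Of 14 Hox and Polycomb or Trithorax group genes 5 were called lower and 0 higher, with a median of -1.26 without array a and -0.39 on array a. brm, the remodelling ATPase, read 600.2, 674, 736 and 579 on EC_pos arrays a to d, against 3029 on LB_neg. The EC_pos arrays were alike, with a difference of -2.11 ± 0.34 (SE; limma adjusted p = 0.00352) without array a and -2.14 ± 0.46 (adjusted p = 0.0865) with it. The histone methyltransferases trx (-1.50) and E(z) (-1.31) were called lower too. Of 29 neuronal identity factors 4 were called lower and 0 higher. Beside Ets65A these were toy (-2.35), oc (-2.22) and ap (-1.87), homeodomain factors of head and brain or of interneurons. Of 9 eye genes 3 were called lower: toy, at 881 (a), 824 (b), 592 (c) and 456 (d) in EC_pos, against 3326 on LB_neg, and the retinal determination genes eya (-1.59) and ey (-1.49). 

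Of 31 genes of axon guidance and neural adhesion 5 were called lower and 2 higher without array a. Among all tested probe sets 10.6% were called lower and 12.6% higher. The list had a median of -0.50 without array a and -0.38 with it. The receptor-like otk read 72.9, 118, 62 and 22.2 on EC_pos arrays a to d, against 729.7 on LB_neg. The 4 EC_pos arrays were all low, with a difference of -2.77 ± 0.55 (SE; limma adjusted p = 0.00909) without array a and -2.74 ± 0.60 (adjusted p = 0.0911) with it. The adhesion protein Nrt read 10630.5, 4151, 3308 and 2458 on EC_pos arrays a to d, against 13829 on LB_neg. Array a was nearer to LB_neg than the others, with a difference of -2.08 ± 0.35 (SE; limma adjusted p = 0.00438) without array a and -1.65 ± 0.85 (adjusted p = 0.384) with it. The phosphatase Ptp69D (-1.93) and klg (-1.84) were called lower, and side (1.49) and conv (1.78) higher.

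Tetraspanins, membrane proteins with 4 membrane-spanning segments, were called higher for 11 of 28 tested without array a and for 3 with all arrays, and 0 were called lower. The median was 0.56 without array a and 0.65 with it, and 17 of the 28 were not called. Tsp42El read 2068, 3513, 5822 and 6843 on EC_pos arrays a to d, against 216 on LB_neg. The difference was 4.28 ± 0.42 (SE; limma adjusted p = 0.000397) without array a and 3.96 ± 0.74 (adjusted p = 0.0695) with it. Tsp29Fa (3.89 ± 0.48 SE, limma adjusted p = 0.0388 with all 4 arrays) and Tsp42Eg (3.57 ± 0.45 SE, limma adjusted p = 0.0402) were the other members beside Tsp42Ed called with array a, and Tsp74F had a difference of 3.87 ± 0.42 (SE; limma adjusted p = 0.00064) without it and 3.70 ± 0.58 (adjusted p = 0.0551) with it. Of 31 odorant binding proteins, small secreted carriers, on the array, 13 were tested. Of the 13, 10 were called higher without array a and 2 with all arrays. The median was 2.20 without array a and 2.01 with it. Obp56h, Obp28a, Obp56a and Obp56d passed the filter through EC_pos arrays alone. They read 4.4, 26.9, 19.8 and 62 on LB_neg and 6.6, 31.9, 181.2 and 94 on LB_pos. The 10 of 13 thus depends in part on the filter. Obp28a read 506, 5369, 3470.3 and 4257 on EC_pos arrays a to d, against 26.9 on LB_neg. Array a was the lowest of the EC_pos arrays, and the difference was 5.76 ± 0.38 (SE; limma adjusted p = 6.98e-05) without it and 5.02 ± 1.20 (adjusted p = 0.108) with it. Obp56a read 1087, 2314, 3125 and 3189 on EC_pos arrays a to d, against 19.8 on LB_neg. It was called in both fits, with 4.97 ± 0.69 (adjusted p = 0.0443) using all 4 arrays. Obp56d had a difference of 4.31 ± 0.63 (SE; limma adjusted p = 0.00242) without array a and 4.02 ± 0.83 (adjusted p = 0.081) with it.

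Glycolytic enzymes were called higher for 7 of 9 tested without array a and for 0 with all arrays, with a median of 2.65 without array a and 2.39 with it. The aldolase Ald1 read 1753, 21128, 19517 and 22575 on EC_pos arrays a to d, against 1719 on LB_neg. Array a lay beside LB_neg and far under the others, giving 3.57 ± 0.26 (SE; limma adjusted p = 9.98e-05) without array a and 2.69 ± 1.43 (adjusted p = 0.401) with it. The hexokinase Hex-A read 726, 1312, 1171 and 1036 on EC_pos arrays a to d, against 119.8 on LB_neg. All EC_pos arrays were above LB_neg, with a difference of 2.82 ± 0.35 (SE; limma adjusted p = 0.00111) without array a and 2.65 ± 0.52 (adjusted p = 0.0739) with it. The phosphofructokinase Pfk read 2943, 3568, 3120.2 and 4245 on EC_pos arrays a to d, against 499.6 on LB_neg. The difference was 2.73 ± 0.32 (SE; limma adjusted p = 0.000958) without array a and 2.66 ± 0.50 (adjusted p = 0.0702) with it. Gapdh1 differed by 2.78 ± 0.48 (SE; limma adjusted p = 0.00496) without array a and 2.43 ± 0.85 (adjusted p = 0.215) with it. Pgk (0.98 ± 0.32 SE, limma adjusted p = 0.0586) and Gpdh1 (0.51 ± 0.38 SE, limma adjusted p = 0.388) were not called. LB_pos was high for this list, at 23098 for Ald1 and 1606 for Hex-A.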

How the data were processed

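Total RNA of sorted cells had been measured on one-colour arrays, and the intensities deposited by the authors are linear, with 1 value for each probe set on each array. How they were computed from the scans, and by which software, is not given in the sources used here. Trimmed of 2% of probe sets at either end, the mean intensity was 500.1 on every array, so the values had been scaled per array and were not scaled again. Tests left out 44 control probe sets. No depth applies to arrays, and their number limits the precision.

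Intensities were transformed as log2(intensity + 53.6) and 3 group means were fitted to all 6 arrays, and again without EC_pos array a, with limma 3.58.1 in R 4.3.3 (eBayes with a trend, Benjamini-Hochberg adjustment over 9635 probe sets). The residual degrees of freedom, 3 with array a and 2 without it, came from the EC_pos arrays. The script was tested on simulated data in which every array varied like EC_pos arrays b, c and d. That test does not cover a deviating array a or an LB_neg that varies otherwise. No batch is given in the labels.

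Names came from the platform annotation, updated through RefSeq. Of 13966 probe sets 12443 had 1 gene, 327 several and 1196 none, which gave 10844 genes. A gene was represented by its probe set with the highest mean, and 7892 genes were tested. A probe set with _s_at, _f_at or _i_at in its name may match related transcripts.

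The 36 lists hold 658 genes on the array, 529 of them tested and 13 in more than 1 list. The text names the GABA genes, in each direction the 10 genes of largest difference that were called without array a and lay at least 1 log2 unit from LB_neg on all 4 arrays, up to 10 probe sets per direction called with all arrays, and up to 4 members with the largest differences and the first 3 of each list. As exceptions, 48 other genes were named after their values were seen, among them Imp, hry, nub and puc. Members and lists were chosen with earlier results of these data known. Alternatives were other offsets, a floor, filters, scalings and eBayes settings, array weights, LB_pos left out and each array left out in turn.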

Additional observations from a re-analysis of the deposited data

Results flagged for a closer look

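For 184 of the genes and probe sets named here and for Gad1, the gap between the most extreme of the 4 EC_pos arrays and its nearest neighbour was divided by the range of the 4 on the log2 scale. It exceeded Dixon's 95% critical value for 4 samples for 24 of these 185. Chance alone flags about 1 in 20 groups that were not selected by their values. Of the 184 here, 152 were called without array a. Such calls favour genes on which b, c and d lie close together, so that rate does not apply to these genes. Array a was the lowest value in 11 cases and the highest in 7, array b the highest in 4 and the lowest in 1, and array d the lowest in 1.

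Array a was far below b, c and d for jeb (0.992), Ald1 (0.943), Rdl (0.939), CG34166 (0.921), obst-E (0.911), Phk-3 (0.906), Tig (0.904), tud (0.894), nSyb (0.875), Hsp27 (0.852) and Nplp1 (0.844). For jeb it read 22.6, against 652 to 665 on the other arrays of the group. It was far above b, c and d for Sgs7 (0.941), PPO1 (0.935), Drs (0.922), Gat (0.889), Pxn (0.878), gcm (0.874) and nAChRalpha4 (0.87). For Sgs7 it read 1946 and the others 59.3 to 80.3.

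Array b was the highest for Crz (0.94), nrv3 (0.891), Obp56h (0.881) and br (0.878), and the lowest for wor (0.842). Crz read 7349 on array b and 1558 to 1712 on the others. Array d was the lowest for Tsp42Eg (0.843), at 598. The cause of these deviations was not tested.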

How the results depend on the processing

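Counts of calls depended on the processing and on single arrays. With all 4 EC_pos arrays, 52 probe sets were called, and this became 161 (140 higher, 21 lower) with the offset at the 10th percentile, 7 (3 higher, 4 lower) with it at the 50th, 9 (8 and 1) with a floor in place of an offset, and 1339 (848 and 491) with array weights, which were 0.18, 1.23, 2.03 and 2.22 for arrays a to d. Leaving out 1 EC_pos array gave 0 to 2231, with 0 without array b, c or d (1203, 1149 and 1216 at an unadjusted p under 0.05) and 2231 without array a. The other alternatives gave 39 to 73. Without array a, 2231 were called, and 1359 (823 and 536) with a floor. Leaving out a further array gave 1135 (without c) to 3870 (without b). The other alternatives gave 2044 to 2350. The 1474 probe sets at least 1 log2 unit from LB_neg on every EC_pos array became 938 (454 and 484) with the offset at the 50th percentile, ranged from 1585 to 2364 with 1 array left out, and lay between 1301 and 1714 otherwise. Of 184 tested genes and probe sets named in the text 152 were called without array a. Of these, 110 kept the call under all 7 offsets, floor, filters and scalings, 8 kept it under those that tested them but did not pass the filter on the mean, 34 lost it under at least 1, and 27 kept it with array a. None was reversed. The sign of a list's median changed for the GABA receptors (-0.17 without a filter, -0.49 with quantile normalization, -0.50 at a common median), glutamate genes (-0.09 without array b), glia (0.14 without a filter, 0.47 with a filter on the mean, 0.04 without b, 0.03 without d), hemocytes (-0.02 with quantile normalization) and the germ line (0.29 with array a, 0.07 without a filter), and for no other list under the alternatives run. No paired analysis was possible because LB_neg has 1 array and shares no replicate numbers with EC_pos beyond it. Signal limits the dim genes: LB_neg was under the offset for 407 of the 1212 probe sets called higher.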

Other observations

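Families of enzymes that modify small foreign and endogenous molecules, and other families below, were picked by symbol after the calls had been seen, so their counts are descriptions. Without array a 12.6% of all tested probe sets were called higher and 10.6% lower. Of 83 cytochrome P450 genes (Cyp) on the array, oxidases of lipids, hormones and toxins, 55 were tested. Of the 55, 28 were called higher and 0 lower without array a, with a median of 1.63. With all 4 arrays 4 were called. Cyp6a20 read 2766, 7047, 3364 and 3186 on EC_pos arrays a to d, against 119.6 on LB_neg. All EC_pos arrays were high, with a difference of 4.48 ± 0.64 (adjusted p = 0.0476) with all 4. Of 31 glutathione S-transferases (Gst) 19 were called higher and 1 lower, with a median of 1.80, and 2 with all arrays. GstD2 read 6645, 22819.7, 7995 and 8716 on EC_pos arrays a to d, against 156 on LB_neg. Array b was the highest, and the difference with all 4 arrays was 5.61 ± 0.77 (adjusted p = 0.0443). GstE6 differed by 3.64 ± 0.52 (adjusted p = 0.0476). Of 33 UDP-glycosyltransferases (Ugt) on the array 14 were tested. Of the 14, 8 were called higher and 0 lower, with a median of 1.94, and 2 with all arrays. Ugt302C1 read 6784, 4275, 2934 and 2783 on EC_pos arrays a to d, against 90.5 on LB_neg, a difference of 4.79 ± 0.63 (adjusted p = 0.0405) with all 4.

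Of 34 cytosolic ribosomal protein genes 9 were called higher and 0 lower, with a median of 0.52 without array a and 0.19 with it. Of 62 mitochondrial ribosomal protein genes 0 were called higher and 1 lower, with a median of -0.43. Of 30 genes of complex I subunits 1 was called higher, with a median of 0.18, and of 22 proton ATPase subunits (Vha) 8 were called higher, with a median of 0.83.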
